A study of Mus musculus with 4 samples.

Results

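The Bcl2 family, the caspases and the inhibitors of apoptosis were examined in 4 primary mammary tumors of female mice. The list of 33 genes was set by gene symbol, and 33 of 33 were found among the 23746 gene rows of each table. Tumors 26043 and 26044 came from triple-mutant WapCre;Rank;Brca1;p53 females and tumors 26048 and 26050 from double-mutant WapCre;Brca1;p53 females, so each genotype had 2 tumors. The females of both genotypes carried the WapCreC transgene with conditional Brca1 and p53 alleles, and the genotypes differed in the conditional allele of Rank (Tnfrsf11a), the receptor for RANKL. The transgene, driven by promoter sequence of the milk protein gene Wap, acts in luminal and basal mammary epithelial cells by the paper. Whether it acts in stromal, immune and endothelial cells of a tumor is not given in the sources used here. The age of each female, the grade of each tumor and the pairs of littermates are not given in the sources used here. By genotype, the paper reports intermediate but no high-grade tumors in triple-mutant females, and both grades in double-mutant females. Grade may thus differ between the genotypes compared here, and its part was not tested. PolyA RNA of whole tumors was sequenced, and the values are FPKM, fragments scaled for transcript length and for the number of mapped reads.

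Apoptosis is set off along 2 routes. In the mitochondrial route, BH3-only proteins bind the anti-apoptotic Bcl2 proteins or act on the effectors, the effectors open the outer mitochondrial membrane, and the cytochrome c set free joins Apaf1 in the apoptosome, which turns on caspase-9. In the death receptor route, Fadd recruits caspase-8, and Cflar holds it back. Inhibitor of apoptosis proteins restrain caspases or steer death receptor signaling, and Diablo released from mitochondria counters them. In the mammary gland this machinery removes secretory epithelium after weaning, p53 turns on several of its genes, and NF-kB, which acts downstream of RANK, turns on others such as Bcl2a1, Birc3, Cflar and Bcl2l1.

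3 members are near copies of each other, and their sequence bears on every value given for them. Bcl2a1a, Bcl2a1b and Bcl2a1d lie on mouse chromosome 9 and encode anti-apoptotic proteins found mainly in blood cells. Their coding sequences in GENCODE vM21 are each 519 bases long and differ from one another at 12 positions in all, with a pairwise identity of 97.9% to 98.8%. The first 120 coding bases, 5′ to 3′, are shown because they hold 7 of the 12 positions, and capitals mark the bases at which the copies differ.
Bcl2a1a: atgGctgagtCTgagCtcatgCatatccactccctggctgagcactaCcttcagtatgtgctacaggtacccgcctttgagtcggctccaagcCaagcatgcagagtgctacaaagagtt
Bcl2a1b: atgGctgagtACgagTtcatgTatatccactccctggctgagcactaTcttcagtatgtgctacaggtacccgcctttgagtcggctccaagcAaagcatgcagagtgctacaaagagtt
Bcl2a1d: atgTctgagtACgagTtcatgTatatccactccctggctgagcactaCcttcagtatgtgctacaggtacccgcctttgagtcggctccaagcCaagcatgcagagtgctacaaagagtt
Reads were 50 bases long, and of all 50-base stretches in the annotated transcripts of each gene, 69.0% for Bcl2a1a, 79.2% for Bcl2a1b and 79.5% for Bcl2a1d also occur in a transcript of another gene. How reads were divided between the copies is thus uncertain. The shared part was 37.3% for Diablo, whose annotation overlaps that of B3gnt4, 26.1% for Cycs, which has processed copies, and 20.8% for Bnip3l, and it was at most 17.2% for the others.

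The promoters of Bok, Bad and Bmf are shown because these 3 genes had the smallest unadjusted p of the members higher in triple-mutant tumors (Bok, Bad) and of those higher in double-mutant tumors (Bmf). Each line holds the 250 bases before the RefSeq start nearest to the 5′ end of the gene in the tables, on GRCm38.p6, read 5′ to 3′ on the strand of the gene. Capitals mark GGG followed by any 5 bases and then CC, a core of NF-kB sites, found on either strand and allowed to overlap.
Bok, chr1:93685325-93685574, plus strand: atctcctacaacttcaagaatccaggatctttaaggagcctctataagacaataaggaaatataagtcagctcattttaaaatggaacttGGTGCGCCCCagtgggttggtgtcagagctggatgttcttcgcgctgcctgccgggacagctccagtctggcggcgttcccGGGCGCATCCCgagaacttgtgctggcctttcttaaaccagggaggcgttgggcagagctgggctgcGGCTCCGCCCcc
Bad, chr19:6941611-6941860, plus strand: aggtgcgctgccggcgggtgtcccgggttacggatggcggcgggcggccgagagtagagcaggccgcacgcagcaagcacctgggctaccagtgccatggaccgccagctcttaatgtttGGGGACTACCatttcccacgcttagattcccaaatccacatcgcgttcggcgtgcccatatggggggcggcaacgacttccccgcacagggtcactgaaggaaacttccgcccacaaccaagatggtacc
Bmf, chr2:118549687-118549936, minus strand: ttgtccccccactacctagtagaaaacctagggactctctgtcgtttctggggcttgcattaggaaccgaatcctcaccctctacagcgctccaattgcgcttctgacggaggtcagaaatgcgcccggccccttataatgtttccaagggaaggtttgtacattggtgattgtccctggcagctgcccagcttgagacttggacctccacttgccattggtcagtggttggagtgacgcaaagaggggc
These letters occurred 4 times in the Bok window, 1 time in the Bad window and 0 times in the Bmf window. The 31 members with a RefSeq promoter had 41 windows, alternative starts included, and 23 of these (56.1%) held at least 1 match, beside 45.8% of all 32851 promoter windows, so a match in these windows was common whatever the gene. The p53-family half-site was in 1 of the 41 windows, that of an alternative start of Bmf, and in 7.13% of all windows.

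On GRCm38, by the positions in the tables, Bok lies on chromosome 1 from 93685694 to 93695762, Bad on chromosome 19 from 6941855 to 6951893 and Bmf on chromosome 2 from 118528757 to 118549678. Bcl2l1 lies on chromosome 2 from 152780668 to 152831682, Diablo on chromosome 5 from 123511330 to 123524164, Bcl2a1b on chromosome 9 from 89199273 to 89207838 and Cflar on chromosome 1 from 58713286 to 58758882. Each of the 33 members overlaps the protein-coding gene of the same symbol in GENCODE vM21.

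Of the 33 members, 31 reached 1 FPKM in at least 2 tumors and were compared between genotypes with limma on log2(FPKM + 1), fitted over the 12752 genes that passed the same filter. Hrk and Casp14 did not reach it. With Benjamini-Hochberg adjustment over all genes, 0 of the 31 passed a threshold of 0.05, as did 0.0% of all genes tested, and the adjusted p of the members ranged from 0.40 to 0.97. By limma 2 members, Bok and Bad, had an unadjusted p under 0.05, or 6.45% of the members beside 9.82% of all genes. An exact permutation test of a single gene in 2 against 2 tumors cannot go below p = 0.333. The labels do not say whether the tumors of a genotype came from separate females, so p-values measure only the spread between these 4 tumors.

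In 6 members both triple-mutant tumors lay above both double-mutant tumors, or 19.4% of the 31 beside 21.3% of all genes tested. These were Bok, Bad, Bcl2l1, Diablo, Casp9 and Apaf1. In 4 members, Bmf, Bcl2a1b, Cflar and Xiap, both double-mutant tumors lay above, or 12.9% beside 22.9% of all genes. The other 21 overlapped. Both shares were below those of all genes, so the members as a list did not separate the genotypes more often than other genes did. The median log2 fold change, triple-mutant minus double-mutant, was 0.18 over the members and -0.02 over all genes tested, with 17 members above 0 and 14 below. The counts rested on each tumor: 17 members were higher in triple-mutant tissue without tumor 26044 and 14 without tumor 26048, and 14 were higher in double-mutant tumors without tumor 26043 and 11 without tumor 26050. A comparison of 2 tumors with 1 separates more readily, and the share of all genes rose too, to 40.2%, 36.4%, 45.1% and 36.3% in the same order. The median of the members turned to -0.14 without tumor 26043 and to -0.15 without tumor 26050.

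**Figure D1:**
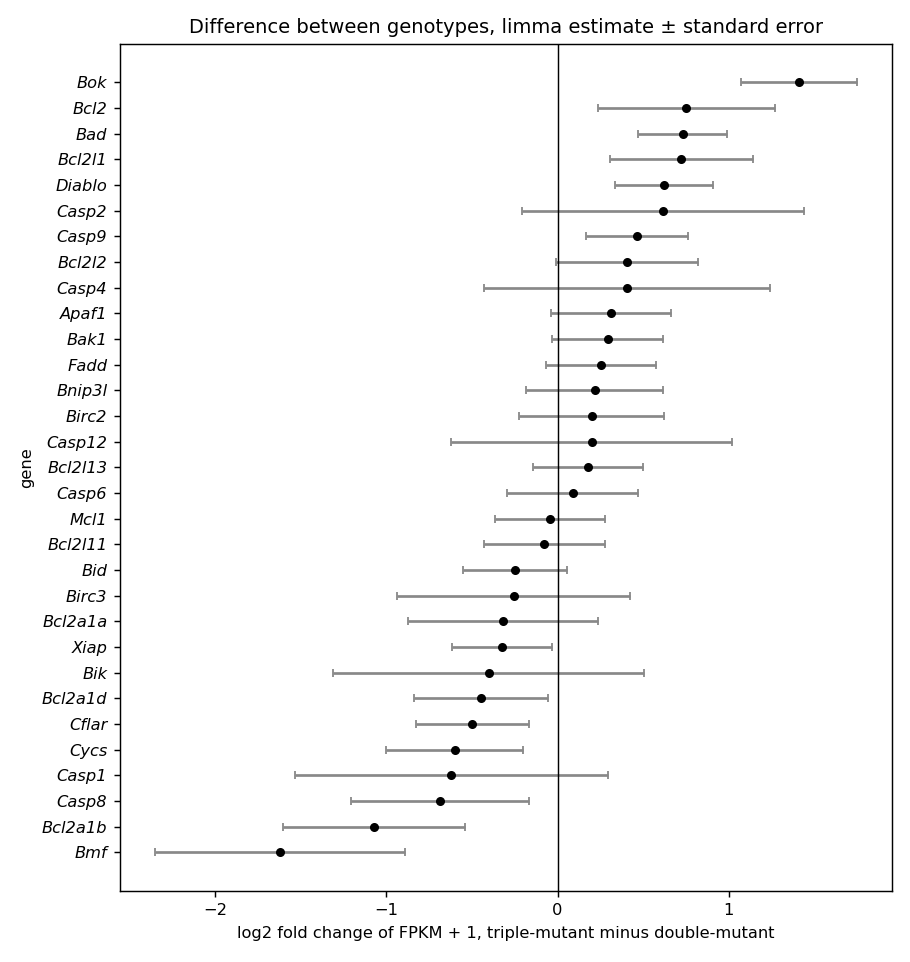
Log2 fold change of FPKM + 1 (horizontal axis, triple-mutant minus double-mutant) of the 31 tested members, with points for the limma estimate and bars for its standard error. Bok at 1.41 and Bmf at -1.62 are the ends of the range, and 0 members passed the adjusted threshold.

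The targeted genes were checked first, since the genotype labels rest on them. Rank was at 2.07 and 0.96 FPKM in the triple-mutant pair and 10.6 and 11.9 FPKM in the double-mutant pair, a difference of -2.32 on the log2 scale (standard error, SE, 0.37, limma adjusted p = 0.22), and the genotypes did not overlap. Brca1 was at 3.26 and 3.28 against 3.84 and 5.69 FPKM. Trp53, targeted in both genotypes, was at 15.7 and 87.8 against 150 and 103 FPKM. A gene's total FPKM does not show whether the floxed exons are missing. The cell type markers differed between tumors. The summed level of 5 epithelial markers was 408 FPKM in tumor 26044 and 1874 to 2803 FPKM in the other tumors, and 4 of the 5 were lowest in tumor 26044. All 5 pan-leukocyte markers were also lowest in tumor 26044, with a sum of 53.6 FPKM beside 123 to 139 FPKM. The 4 basal markers (Krt5, Krt14, Krt17, Trp63) summed to 1671 and 359 FPKM in triple-mutant and to 7.71 and 14.5 FPKM in double-mutant tumors, and none of the markers was at 0 in all tumors. The 7 macrophage markers summed to 517 and 318 against 893 and 650 FPKM, and 5 of the 7 lay higher in both double-mutant tumors, beside 22.9% of all genes tested. Tumor 26048 had the highest sums of 6 fibroblast markers, 891 FPKM beside 123 to 428 FPKM, and of 5 adipocyte markers, 1390 FPKM beside 7.58 to 261 FPKM. Most of its fibroblast sum came from Col1a1, at 486 FPKM, and Col1a2, at 237 FPKM. The list did not go 1 way, as Pdgfra was highest in tumor 26044, at 19.1 beside 1.63 FPKM in tumor 26048, and Dcn was highest in tumor 26043. Even so, neither triple-mutant tumor exceeded a fibroblast sum of 204 FPKM, while tumor 26050, the lower of the double-mutant pair, reached 428 FPKM. Without overlap, 3 of the 6 fibroblast markers lay higher in double-mutant tumors and 1 in triple-mutant tumors. The counts were likewise 3 and 1 for the 5 epithelial markers. Cell content may thus differ by genotype as well as by tumor, and its part was not tested. The 5 endothelial markers summed to 69.6 FPKM in tumor 26044 and 19.4 to 36.3 FPKM in the others. In bulk tissue, fewer cells of a type and less RNA per cell cannot be told apart.

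**Figure D2:**
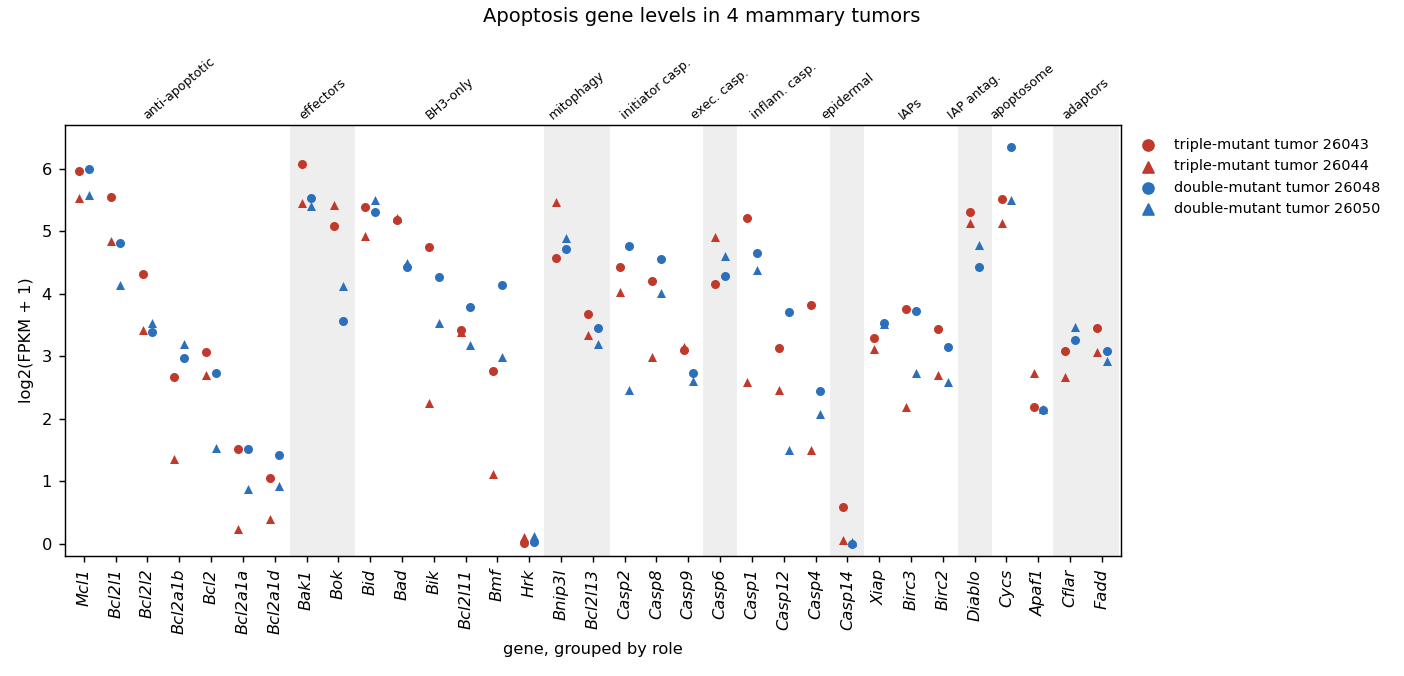
Level of the 33 members in each tumor as log2(FPKM + 1) (vertical axis), grouped by role along the horizontal axis, with red for triple-mutant and blue for double-mutant tumors. Mcl1, Bak1 and Cycs lie near the top, Hrk and Casp14 near 0, and the red and blue points overlap for most genes.

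Among the 7 anti-apoptotic Bcl2 genes, 1 lay higher without overlap in the triple-mutant pair and 1 in the double-mutant pair. Mcl1, a short-lived guard of the mitochondrial membrane, had the highest mean, at 61.7 and 45.2 FPKM in the triple-mutant pair and 63.1 and 47.0 FPKM in the double-mutant pair. Each genotype had 1 tumor high and 1 low, and the log2 fold change was -0.04 (SE 0.32, limma adjusted p = 0.97). It was 0.12 with interval midpoints, 0.18 without tumor 26044 and 0.17 without tumor 26048. Bcl2l1, which encodes Bcl-xL, was at 46.1 and 27.8 against 27.2 and 16.6 FPKM. Both triple-mutant tumors lay above both double-mutant tumors, but tumors 26044 and 26048 were only 1.02-fold apart. The log2 fold change of 0.72 (SE 0.42, limma adjusted p = 0.61) was 0.37 without tumor 26043 and 0.38 without tumor 26050, and the genotypes overlapped once values were rescaled to the same sum in each tumor (TPM) or taken as interval midpoints.

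Bcl2a1b was at 5.36 and 1.57 FPKM in the triple-mutant pair and 6.87 and 8.14 FPKM in the double-mutant pair. Tumor 26044 was the low one, and the log2 fold change of -1.07 (SE 0.53, limma adjusted p = 0.57) was -0.41 without it. The near copies Bcl2a1a, between 0.18 and 1.87 FPKM, and Bcl2a1d, between 0.32 and 1.67 FPKM, were also lowest in tumor 26044, and their genotypes overlapped. The leukocyte markers were lowest in the same tumor, and 3 of 5 leukocyte and 5 of 7 macrophage markers lay higher in both double-mutant tumors without overlap, as Bcl2a1b did. Their part in these values was not tested. Bcl2, the founding member of the family, was at 7.43 and 5.48 against 5.68 and 1.88 FPKM, with tumor 26050 lowest. The nearer end of Bcl2 lies 690 kb from Rank on chromosome 1. The 10 genes tested within 1 Mb of Bcl2 had a median log2 fold change of -0.25, while that of Bcl2 was 0.75 (SE 0.52). Bcl2l2 reached 19.0 FPKM in tumor 26043 and 9.48 to 10.6 FPKM in the other tumors.

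The summed FPKM of the 7 genes was 143 and 90.2 in triple-mutant and 116 and 86.0 in double-mutant tumors, so the sums overlapped. Mcl1 made up 43.3% and 50.1% of the sum in triple-mutant and 54.4% and 54.6% in double-mutant tumors. Bcl2l1 made up 32.4% and 30.8% against 23.5% and 19.4%. The ratio of Bcl2l1 to Mcl1 was 0.748 and 0.616 in triple-mutant and 0.432 and 0.354 in double-mutant tumors, without overlap. In each tumor Bcl2l1 lay above its own Cufflinks interval and Mcl1 below its own, and both raise the ratio. With interval midpoints the log2 fold change was 0.61 for Bcl2l1 and 0.12 for Mcl1, beside 0.72 and -0.04 for the FPKM. Ratios of midpoints were not computed. A ratio within a tumor does not change with that tumor's scaling, and this pair was chosen after its values were seen, so the separation is a description. It was 1 of 6 ratios computed, of which 3 overlapped between genotypes. These were Bad to Bcl2l1 at 0.768 and 1.29 against 0.758 and 1.30, Casp8 to Cflar, at 1.31 in tumor 26044 and 2.62 in tumor 26048 with the other two in between, and Diablo to the summed inhibitors Birc2, Birc3 and Xiap at 1.24 and 2.05 against 0.673 and 1.25.

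**Figure D3:**
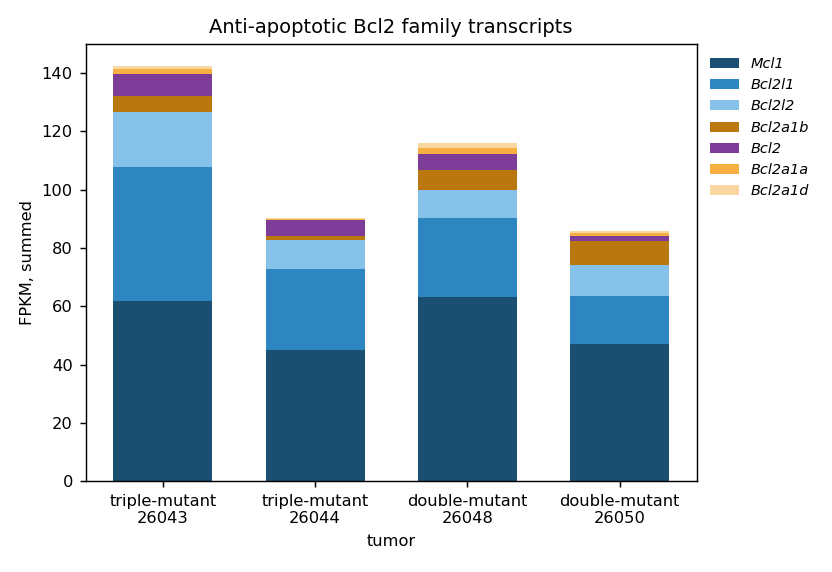
Summed FPKM (vertical axis) of the 7 anti-apoptotic Bcl2 genes in each tumor, with 1 color per gene. The sums of 143 and 90.2 FPKM in the triple-mutant pair and 116 and 86.0 FPKM in the double-mutant pair overlap, and the Bcl2l1 part is 32.4% and 30.8% against 23.5% and 19.4%.

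Of the 2 effectors listed, Bok had the smallest p of all members. Bok, a Bcl2 relative that can permeabilize membranes without BH3-only proteins, was at 32.9 and 41.9 FPKM in the triple-mutant pair and 10.9 and 16.4 FPKM in the double-mutant pair. The genotypes did not overlap, and the nearest pair of tumors was 2.01-fold apart. The log2 fold change was 1.41 (SE 0.34, limma unadjusted p = 0.011, adjusted p = 0.40) and lay between 1.13 and 1.69 with any 1 tumor left out. The FPKM of Bok was above its own Cufflinks interval in each tumor, for example 16.1 to 19.8 FPKM in tumor 26043, and with interval midpoints the genotypes still did not overlap. The values of Mcl1, Bcl2l1, Bak1, Bid, Bik, Bnip3l, Casp1, Casp12, Xiap, Birc2 and Cycs also lay outside their intervals in each tumor. The 18 genes tested within 1 Mb of Bok had a median log2 fold change of -0.05. Bak1, the classical effector, was at 66.5 and 43.0 against 45.6 and 41.5 FPKM, and tumor 26043 alone was high. The log2 fold change of 0.29 (SE 0.33, limma adjusted p = 0.78) turned to -0.02 without that tumor. The ratio of Bok to Bak1, also chosen after its values were seen, was 0.495 and 0.976 in triple-mutant and 0.238 and 0.396 in double-mutant tumors.

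Of the 6 BH3-only genes, Bad lay higher in triple-mutant and Bmf higher in double-mutant tumors. Bad, whose protein is held inactive by phosphorylation downstream of growth factor signals, was at 35.4 and 35.9 FPKM against 20.7 and 21.6 FPKM. Tumors of the same genotype nearly coincided, with an SD over n = 2 of 0.34 FPKM for the triple-mutant pair and 0.66 FPKM for the double-mutant pair. The log2 fold change was 0.73 (SE 0.26, limma unadjusted p = 0.042, adjusted p = 0.50), and it was 0.70 to 0.76 with any 1 tumor left out.

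Bmf, which senses loss of attachment and is tied to the cytoskeleton, was at 5.78 and 1.17 FPKM in the triple-mutant pair and 16.6 and 6.91 FPKM in the double-mutant pair. The genotypes did not overlap, although the nearest pair, tumors 26043 and 26050, was 1.19-fold apart and each genotype varied widely. The log2 fold change of -1.62 (SE 0.73, limma adjusted p = 0.55) was -0.80 without tumor 26044 and -1.04 without tumor 26048. The ratio of Bmf to Bcl2l11, another of the 6, was 0.594 and 0.124 against 1.29 and 0.862. Bid, which links caspase-8 to mitochondria, had the highest mean of the group, at 40.9 and 29.3 against 38.6 and 44.1 FPKM. The genotypes overlapped, and the log2 fold change of -0.25 (SE 0.30, limma adjusted p = 0.80) was -0.012 without tumor 26044 and -0.48 without tumor 26043. Bcl2l11, which encodes Bim, lay between 8.02 and 12.8 FPKM. Bik ranged 6.86-fold, from 3.76 FPKM in tumor 26044 to 25.8 FPKM in tumor 26043, so the triple-mutant pair spanned the double-mutant pair. Hrk, a BH3-only gene best known in neurons, was at most 0.09 FPKM. The genotypes of the 2 mitophagy receptors overlapped. Bnip3l was at 22.7 and 43.3 against 25.3 and 28.6 FPKM, and tumor 26044 was high. The log2 fold change of 0.22 (SE 0.40, limma adjusted p = 0.87) turned to -0.23 without that tumor. Bcl2l13 lay between 8.12 and 11.7 FPKM.

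Of the 3 initiator caspases, Casp9, the caspase of the apoptosome, separated the genotypes, at 7.59 and 7.90 against 5.63 and 5.07 FPKM, with a log2 fold change of 0.46 (SE 0.30). Casp2 had the highest mean level of the group, at 20.6 and 15.3 against 26.1 and 4.51 FPKM. Tumor 26050 was low and the double-mutant pair spanned the triple-mutant pair, so the log2 fold change of 0.62 (SE 0.82, limma adjusted p = 0.81) turned to -0.53 without that tumor. Casp8 was at 17.4 and 6.98 against 22.5 and 15.1 FPKM, with tumor 26044 low. Casp6, the executioner caspase listed, was at 16.8 and 29.2 against 18.5 and 23.4 FPKM. The triple-mutant pair spanned the double-mutant pair, and the log2 fold change of 0.09 (SE 0.38, limma adjusted p = 0.95) turned to -0.30 without tumor 26044 and to -0.08 without tumor 26048.

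The inflammatory caspases listed, Casp1, Casp4 and Casp12, varied widely within genotypes. Casp1 was at 36.0 and 5.01 FPKM in the triple-mutant pair and 24.1 and 19.9 FPKM in the double-mutant pair. The triple-mutant pair thus held the highest and the lowest value, and the log2 fold change of -0.62 (SE 0.91, limma adjusted p = 0.83) turned to 0.69 without tumor 26044. Casp4 showed the same span, from 13.2 FPKM in tumor 26043 to 1.83 FPKM in tumor 26044, with 4.44 and 3.21 FPKM in double-mutant tumors. Casp12 was at 7.80 and 4.53 against 12.1 and 1.82 FPKM. The 3 genes are neighbours on chromosome 9, and all overlapped between genotypes. Casp14, a caspase of cornifying skin that takes no known part in apoptosis, was at 0.50 and 0.04 against 0 and 0.01 FPKM. It was highest in tumor 26043, where the summed level of 13 markers of squamous differentiation was 413 FPKM beside 21.1 to 49.9 FPKM in the other tumors. Most of that sum came from Sprr1a, at 195 FPKM, and Krt6a, at 109 FPKM, and 6 of the 13 passed the filter. Not all markers were highest there, as Krt1 was highest in tumor 26044 and Krt10 and Tgm3 in tumor 26048. The part of squamous cells in the Casp14 value was not tested.

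Of the 3 inhibitor of apoptosis genes, Xiap, the direct caspase inhibitor, had the highest mean over the 4 tumors, at 8.83 and 7.65 against 10.6 and 10.5 FPKM. Both double-mutant tumors were higher, by 1.28-fold in the means, and the log2 fold change of -0.32 (SE 0.29, limma adjusted p = 0.73) was -0.11 with interval midpoints. Birc2 and Birc3, ubiquitin ligases that act in NF-kB signaling, lie 13.4 kb apart on chromosome 9, and Birc3 lies 59.0 kb from Yap1. Birc3 was at 12.5 and 3.54 against 12.2 and 5.63 FPKM, and exceeded Xiap in tumors 26043 and 26048. Birc2 lay between 5.03 and 9.80 FPKM, and both genes overlapped between genotypes. The genes tested within 1 Mb had a median log2 fold change of 0.08 around Birc3 and -0.11 around Birc2. Yap1 was at 78.1 and 53.7 against 47.6 and 40.7 FPKM, without overlap. Diablo, the antagonist of these inhibitors, was at 38.7 and 34.2 FPKM in the triple-mutant pair and 20.6 and 26.4 FPKM in the double-mutant pair. The genotypes did not overlap, and the log2 fold change was 0.62 (SE 0.29, limma adjusted p = 0.55), in a gene of which 37.3% of 50-base stretches are shared.

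Within the apoptosome pair, Cycs, which encodes somatic cytochrome c, was at 44.8 and 34.0 against 80.6 and 44.1 FPKM. Tumor 26048 was high, the genotypes overlapped by tumors 26043 and 26050, and the log2 fold change of -0.60 (SE 0.40, limma adjusted p = 0.65) was -0.17 without tumor 26048 and -1.03 without tumor 26050. Apaf1 was at 3.55 and 5.66 against 3.40 and 3.48 FPKM, so its separation rested on a 1.02-fold step between tumors 26043 and 26050. Of the death receptor adaptors, Cflar was at 7.45 and 5.32 FPKM in the triple-mutant pair and 8.61 and 10.1 FPKM in the double-mutant pair. Both double-mutant tumors were higher, and the log2 fold change of -0.50 (SE 0.33, limma adjusted p = 0.65) was -0.29 without tumor 26044. Cflar and Casp8 lie 36.5 kb apart on chromosome 1, and the 21 genes tested within 1 Mb of Cflar had a median log2 fold change of -0.57. Among these 21 genes 8 lay above 0, and a change shared across the region was not tested. Fadd lay between 6.63 and 9.95 FPKM, with overlap.

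The members varied more within the triple-mutant pair than the genes at large. Their median difference between tumors 26043 and 26044 was 0.62 log2 units, beside 0.45 over all genes tested, and it was 0.37 beside 0.36 between tumors 26048 and 26050. In 20 of 31 members (64.5%, beside 55.9% of all genes) the triple-mutant tumors differed more from each other than the genotypes did. Tumor 26043 was highest in 13 members (41.9%, beside 27.9% of all genes) and tumor 26044 lowest in 14 (45.2%, beside 39.0%). The members low in tumor 26044 included Bcl2a1b, Bik, Bmf, Casp1, Casp4, Casp8 and Birc3, and Bok, Bad, Bnip3l, Casp6 and Apaf1 were highest there. The epithelial and leukocyte marker sums were also low in that tumor, and its endothelial sum was high. Both sets of members were picked by their level there, so the match in that tumor was fixed in advance. Tumor 26048 was highest in 9 members (29.0%, beside 23.2% of all genes), among them Bmf, Cycs, Casp2, Casp8 and Casp12. It also had the highest fibroblast and adipocyte sums, although the fibroblast markers Pdgfra and Dcn were not highest there. The part of these cells was not tested.

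**Figure D4:**
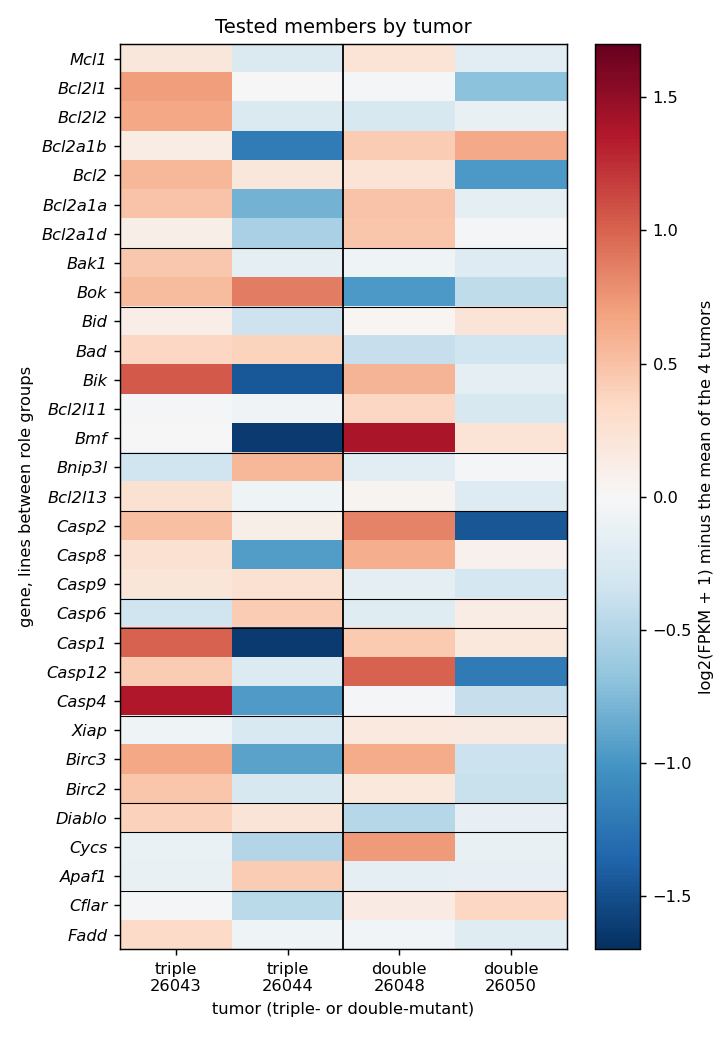
Deviation of the 31 tested members from their mean over the 4 tumors on the log2(FPKM + 1) scale (color), with tumors as columns and genes as rows grouped by role. Tumor 26044 is the lowest tumor in 14 rows and tumor 26043 the highest in 13, and Bok and Bad show 1 color in both tumors of a genotype.

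Of other genes of cell death, listed by hand, 50 of 63 found passed the filter. By limma 0 passed the adjusted threshold and 3 (6.0%, beside 9.82% of all genes) had an unadjusted p under 0.05, without overlap 10 (20.0%) lay higher in triple-mutant tumors and 10 (20.0%) in double-mutant tumors, beside 21.3% and 22.9% of all genes, and the median log2 fold change was -0.12. Cradd, an adaptor of caspase-2, was at 3.72 and 2.47 against 9.25 and 11.0 FPKM, with a log2 fold change of -1.45 (SE 0.34, limma adjusted p = 0.40). The genotypes of Cradd lay well apart beside its spread within each pair. Mlkl, which executes necroptosis, was at 15.5 and 4.49 against 20.5 and 16.9 FPKM. In the other direction, Sept4 was at 7.57 and 59.4 against 4.79 and 5.73 FPKM, so most of its log2 fold change of 1.87 (SE 0.98) came from tumor 26044. Gsdmd, the pore protein of pyroptosis, was at 8.53 and 9.07 against 4.84 and 3.96 FPKM, and Endog, a mitochondrial nuclease, at 13.4 and 18.9 against 8.90 and 10.2 FPKM.

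Of 30 other NF-kB target genes found, 27 were tested. The list was chosen with earlier results of these data known, so its shares are a description. By limma 0 passed the adjusted threshold and 7 (25.9%, beside 9.82% of all genes) had an unadjusted p under 0.05, without overlap 6 (22.2%) lay higher in triple-mutant tumors and 4 (14.8%) in double-mutant tumors, beside the same 21.3% and 22.9%, and the median log2 fold change was -0.05. Tnfaip2 was at 26.0 and 24.1 against 4.91 and 5.49 FPKM, with a log2 fold change of 2.07 (SE 0.29, limma adjusted p = 0.20). Plau, the urokinase gene, was at 36.2 and 99.0 against 11.7 and 16.3 FPKM, and Gadd45b at 29.1 and 34.5 against 18.9 and 11.8 FPKM. Higher in double-mutant tumors were the chemokines Ccl20, at 0.82 and 0.28 against 3.70 and 7.51 FPKM, and Ccl2, at 3.87 and 2.49 against 10.9 and 12.1 FPKM, and the stress response gene Ier3, at 88.3 and 60.1 against 196 and 239 FPKM.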

How the data were processed

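The authors aligned 50-base single-end reads of polyA RNA with TopHat2 2.0.10 and Bowtie 0.12.9 to mm10 and estimated FPKM with Cufflinks 2.1.1, per the labels and the methods. The deposited tables, 1 per tumor, give the FPKM of each gene with a confidence interval. The authors' count test (HTSeq, DESeq2 1.6.2) was not run here, since the values used are FPKM. Read depth per tumor is unknown. The status was OK for all 132 member values, but 53 of them lay outside their own interval. The median half-width of the interval was 7.89% of its midpoint, which covers the estimate within a tumor and not the spread between tumors.

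Rows were joined by symbol and position. The 12752 genes that reached 1 FPKM in 2 or more tumors were fitted with limma 3.58.1 in R 4.3.3 on log2(FPKM + 1), with a trend and Benjamini-Hochberg adjustment at 0.05. Fold changes on this scale understate those of low genes. Members and gene lists were chosen with earlier results of these data known. Members given in full had genotypes that did not overlap and a log2 fold change of at least 0.5 in size, or the highest mean of their role group. From each other list, the 3 largest changes without overlap in each direction were named, except 1 gene that is not reported here and still counts in its list. Any other value was chosen after it was seen. Coordinates and transcripts are from GENCODE vM21, promoters from RefSeq on GRCm38.p6. Promoters were matched for 31 of 33 members. As alternatives, the pseudocount was set to 0.1, the filter was dropped or raised to 5 FPKM, values were rescaled to TPM, quantile-normalized or replaced by interval midpoints, the trend was dropped, and each tumor was left out.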

Additional observations from a re-analysis of the deposited data

How the results depend on the processing

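In all 11 alternatives 0 members passed the adjusted threshold, with the smallest adjusted p of a member by limma between 0.15 and 0.99. Of all genes, 6 passed with quantile normalization, 5 without the trend, 1 with interval midpoints and 0 otherwise. Under the 7 alternatives that kept all tumors, 5 to 8 members were higher in triple-mutant and 4 to 6 in double-mutant tumors without overlap (all genes 19.4% to 23.0% and 19.5% to 25.6%), and the median log2 fold change was 0.13 to 0.20. With a tumor left out these were 7 to 17, 5 to 14 and -0.15 to 0.44, and for the other genes of cell death 13 to 20 and 13 to 27, while the shares of all genes were 30.8% to 40.2% and 31.9% to 45.1%. Of the named members, 111 of 112 fold changes kept their direction with all tumors and 56 of 64 with a tumor left out. The exception with all tumors was Mcl1 at 0.12 with interval midpoints. With a tumor left out, the log2 fold change ranged from -0.26 to 0.18 for Mcl1 (above 0 without tumor 26044 at 0.18 and without tumor 26048 at 0.17), from -0.017 to 0.60 for Bak1 (below 0 without tumor 26043), from -0.23 to 0.67 for Bnip3l (below 0 without tumor 26044), from -0.30 to 0.47 for Casp6 (below 0 without tumor 26044 at -0.30 and without tumor 26048 at -0.08), from -1.93 to 0.69 for Casp1 (above 0 without tumor 26044) and from -0.53 to 1.77 for Casp2 (below 0 without tumor 26050). The lone tumor of a genotype is then assumed to vary like the pair. The cause was not tested. No paired analysis was possible because the littermate pairs are not given. With 2 tumors per genotype and unknown depth, a miss of the threshold does not show equal levels.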
